A study of Mus musculus with 28 samples.

Results

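Long stretches of the autosomes of these mouse embryonic fibroblasts were assigned to a single chromatin state, U1, whichever the genotype or treatment. They were chosen by the deposited chromatin states, as unbroken runs of 200 bp bins on chromosomes 1 to 19 that were in state U1 in all 4 chromatin segmentations, 500 kb or longer, counted from 3 Mb onward to leave out the unassembled starts of the chromosomes. There were 360 such stretches among the 35120 autosomal runs that were U1 in all 4 segmentations. They covered 389 Mb, 16.1% of the 2415 Mb of counted autosomal sequence, while the 34760 shorter runs covered 1142 Mb (47.3%). Since the states selected these stretches, they are described without a test. SIRT7 peaks came from separate ChIP libraries and did not enter the rule. Their excess in unmarked sequence under GS was known when the rule was set, so they are not an independent readout.

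The study used primary fibroblasts of strain 129s2, taken from embryos at 14.5 days and used at passages 3 to 4, either wild type (WT) or SirT7-/- (KO). Treatments are labelled NT and GS. The labels expand neither, and the title of the series concerns the response to glucose starvation. The 4 segmentations (WT-NT and WT-GS for WT cells, KO-NT and KO-GS for KO cells) were each made from 2 H3K27me3 and 2 macroH2A1.1 ChIP libraries (the latter named mH2A1), and the SIRT7 peak lists, 1 for NT and 1 for GS, each stand for 2 libraries from WT cells. The groups are therefore WT and KO cells under each of NT and GS, with no other allele or agent given, and no SIRT7 ChIP from KO cells was analysed here, so listed peaks independent of SIRT7 itself could not be recognised. Because replicates were already combined, no value has a replicate error. Intervals below are 95% and exact (Poisson for peaks per Mb, conditional for ratios of densities, binomial for shares). They cover counting error only and treat peaks as independent, although neighbouring peaks were often close, so they are too narrow. For a count of 0, the limit given ("allows up to") is instead 3 counts over the length, which is lower than the exact upper bound. Read depth is unknown.

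H3K27me3 is the mark that Polycomb repressive complex 2 writes on histone H3, and it forms broad domains over silenced developmental genes. MacroH2A1.1 is a splice form of a large histone H2A variant whose macrodomain binds ADP-ribose, and it is likewise spread over wide domains that often overlap H3K27me3. SIRT7 is a nuclear sirtuin, an enzyme that uses NAD to remove acyl groups from proteins and that is also known in the nucleolus. The sources used here do not say what U1 to U4 each stand for. U2, U3 and U4 are called marked below. U1 is called unmarked, and it also takes in sequence without reads: of the 285000 bins in the initial 3 Mb of the autosomes, all were U1 in both WT segmentations and all but 2 in each KO segmentation. A long U1 stretch can therefore be chromatin without the marks or sequence that reads do not reach, and these cannot be told apart in the segmentations.

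The stretches ranged from 500.6 to 7634 kb, with a median of 811 kb and quartiles of 629 and 1246 kb. The 135 that reached 1 Mb held 60.1% of the total length, and the 34 that reached 2 Mb held 24.9%. Shorter unmarked runs were of another order, with a median of 10.0 kb. At the length minimum, the 3 shortest stretches were chr17:54494601-54995200 (500.6 kb, 4 GS peaks), chr6:63952801-64454600 (501.8 kb, 0 GS peaks) and chr8:114588601-115092200 (503.6 kb, 0 GS peaks). Just below it lay chr16:59686201-60186000 (499.8 kb, 1 GS peak), chr14:124065201-124564600 and chr7:59340401-59839800 (499.4 kb and 0 GS peaks each). None of these 6 held an NT peak. All coordinates are mm9 and count from 1.

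The longest stretch lay on chromosome 7 from 39066001 to 46700200 and spanned 7634 kb. Not a single SIRT7 peak of either list fell in it, which allows up to 0.393 peaks per Mb, and it is also the longest stretch without a peak. The second, on chromosome 7 from 7257401 to 12595600 (5338 kb), was at the opposite end, with 67 GS peaks. The third was on chromosome 7 as well, from 20569801 to 24858400 (4289 kb, 2 GS peaks). Next came chromosome 11 from 12625401 to 16155400 (3530 kb, 7 GS peaks). Chromosome 12 held the following 2, from 21616401 to 25109000 (3493 kb, 0 GS peaks, which allows up to 0.859 per Mb) and from 62628001 to 66000400 (3372 kb, 2 GS peaks). The remaining 4 of the 10 longest were chr1:116957201-120180600 (3223 kb, 4 GS peaks), chr2:174743801-177850600 (3107 kb, 1 GS peak), chr17:18050201-21136600 (3086 kb, 1 GS peak) and chr2:87366801-90246200 (2879 kb, 2 GS peaks). Together the 10 held 86 GS peaks in 40.0 Mb, above the autosomal density of 0.941 per Mb, and 67 of these lay in the second. That stretch was left out after its count was seen. The other 9 held 19 GS peaks in 34.6 Mb, or 0.549 per Mb (0.330 to 0.857), below the autosomal density. The 10 together held 0 NT peaks, which allows up to 0.0751 per Mb.

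**Figure D1:**
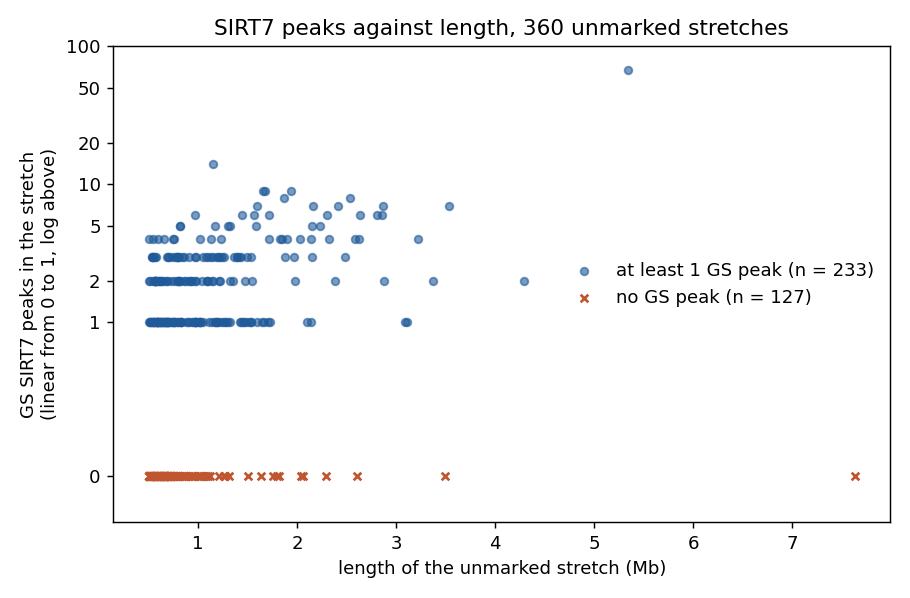
Each point is 1 of the 360 unmarked stretches, with its length in Mb on the x axis and the number of GS SIRT7 peaks whose midpoint lies in it on the y axis (linear from 0 to 1, logarithmic above). The 233 stretches with a peak are circles and the 127 without one are crosses; the stretch of 5338 kb with 67 peaks stands far above the rest, and the longest, of 7634 kb, has none.

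The stretches were spread over all 19 autosomes but unevenly. They took up 15.6% of an autosome on average (SD 5.96 over the 19 autosomes). Chromosome 7 was highest, with 28 stretches over 31.6% of its sequence, followed by chromosome 14 with 31 over 24.9% and chromosome 6 with 30 over 22.3%. Chromosome 11 was lowest, with 5 stretches over 6.56%, and chromosomes 19 (6 stretches, 9.29%) and 10 (14 stretches, 9.57%) came next. Chromosome 1 had the most, 34, over 20.3% of its sequence.

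Within chromosomes, the stretches were more frequent toward the centromere, which in mouse chromosomes lies at the start of the coordinates. With each autosome divided into 5 equal sections from 3 Mb to its far end, they covered 22.2% of section 1, 17.1% of section 2, 18.3% of section 3, 12.7% of section 4 and 10.2% of section 5. Of the 360 centres, 94 lay in section 1 and 51 in section 5. Chromosomes 1, 3, 14 and 16 had a stretch that began at the 3 Mb start itself, of 659, 507, 1121 and 689 kb. On chromosome 17 a stretch of 858 kb ran to the end of the chromosome. These 5 stretches held 1 GS peak between them, on chromosome 3.

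Some stretches lay next to one another. Of the 715 borders that did not lie at an end of the counted sequence, 110 (15.4%) faced another stretch across a single marked break. Joining stretches no more than 10000 bp apart put 101 of them into 47 groups. The largest number in a group was 4, reached on chromosome 8 from 98765801 to 104062400 (5297 kb). Chromosome 14 also had a group of 4, from 4215001 to 7721200. A smaller group on chromosome 7, from 39066001 to 47629200, held the longest stretch and spanned more sequence. Joining across 100000 bp put 122 into 54 groups, the largest by number being 5 stretches on chromosome 14 from 3000001 to 7721200.

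By the rule, a stretch ends at the first bin marked in any of the 4 segmentations. Wherever their marks do not begin at the same bin, the border bin is marked in fewer than 4. The counts for border bins are therefore largely built into the rule. At the marked bin that ended a stretch, 589 of 715 borders (82.4%) were marked in only 1 of the 4 segmentations, and 29 (4.06%) in all 4. The whole break behind it, up to the next bin unmarked in all 4, was more often shared: 251 breaks (35.1%) held marks of all 4 segmentations and 303 (42.4%) of only 1. Breaks had a median of 4000 bp, 156 (21.8%) were 1000 bp or shorter, and 6 were a single bin. WT-GS was marked at 328 border bins and alone at 227 of them (31.7%). WT-NT was marked at 238, KO-GS at 198 and KO-NT at 167, and they were alone at 153, 105 and 104. Borders marked in both WT and neither KO segmentation numbered 21, against 9 for the reverse. Those marked in both GS and neither NT segmentation numbered 19, against 3 for the reverse. The state at the border also varied. U2 led only in WT-GS, at 58.2% of its marked borders. In the other segmentations U3 led, at 50.4% in WT-NT, 56.9% in KO-NT and 63.1% in KO-GS. Over all autosomal sequence outside the stretches, 37.8% of bins were marked in WT-GS (25.5% U2, 10.3% U3). In KO-GS 33.8% were marked (21.5% U2, 10.0% U3). U2 thus led at large in both. A marked domain counts by its length at large and once at a border, so these shares are unlike measures. Whether border states differ from those at large was not tested. U4 made up 2.40 to 5.88% of marked borders in each segmentation.

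**Figure D2:**
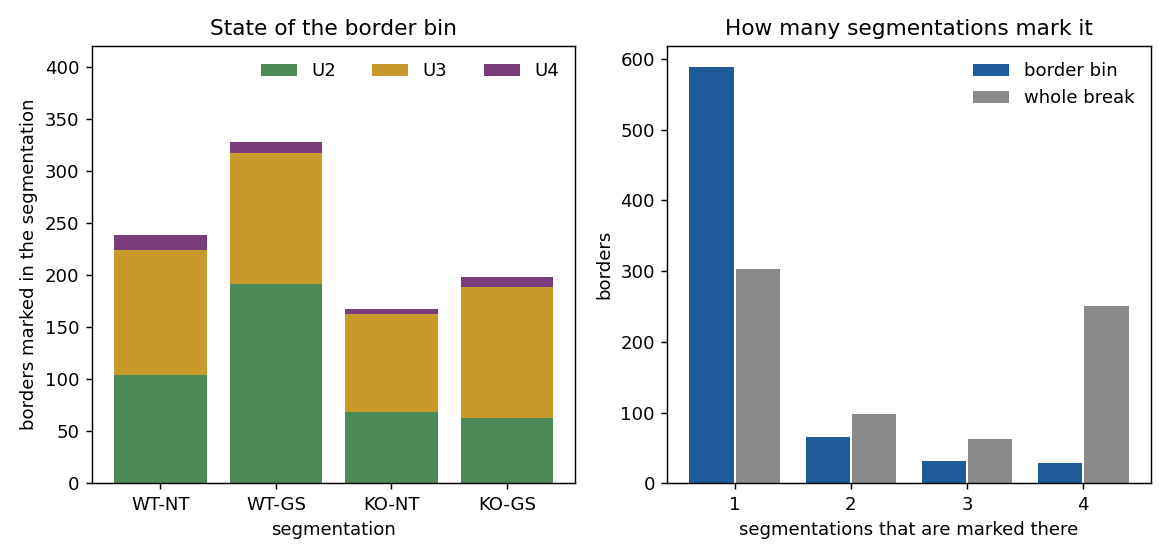
The left panel counts, for each segmentation, the stretch borders whose first marked bin is U2, U3 or U4 there (stacked bars), from 167 in KO-NT to 328 in WT-GS. The right panel counts the 715 borders by how many segmentations mark the border bin (blue) and the whole marked break behind it (grey); 589 border bins are marked in 1 segmentation, whereas 251 breaks hold marks of all 4.

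Each segmentation on its own had more long unmarked sequence than the 4 shared. Runs of U1 of 500 kb or longer numbered 424 (488 Mb) in WT-NT, 410 (454 Mb) in its GS counterpart, 463 (525 Mb) in KO-GS and 444 (512 Mb) in KO-NT. Both KO segmentations thus held more than either WT segmentation, by an amount that has no replicate error and no test. The shared stretches made up 79.7, 85.8, 74.1 and 76.1% of these lengths, in the same order. In WT-GS the U1 run around a stretch was the stretch itself in 75 of 360 cases, against 42 in WT-NT, 25 in KO-NT and 31 in KO-GS. In KO-GS 52 stretches lay in a run at least 2 times as long, and in WT-GS 22 did. The stretch on chromosome 17 from 18050201 had the same ends in all 4 segmentations, a run of 3086 kb in each. That on chromosome 2 from 87366801 (2879 kb) lay in a run of 4616 kb in KO-NT, 3055 kb in WT-NT, 2894 kb in KO-GS and 2880 kb in WT-GS.

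GS peaks were denser in the long stretches than in the pool of all shorter unmarked runs, and denser there than in marked sequence, but not every class of shorter run was poorer than every class of stretch. The 28632 runs under 50 kb had 1.36 GS peaks per Mb (1.24 to 1.49), and the 152 stretches under 750 kb had 1.31 (1.09 to 1.56). A peak was counted where its midpoint lay. Of the 2272 GS peaks on counted autosomal sequence, 641 (28.2%, interval 26.4 to 30.1%) lay in the stretches, or 1.65 per Mb (1.52 to 1.78). Shorter runs unmarked in all 4 segmentations held 1178 peaks, 1.03 per Mb (0.973 to 1.09), and sequence marked in at least 1 segmentation held 453, 0.513 per Mb (0.467 to 0.562). The stretches were thus 1.60 times as dense as shorter unmarked runs (1.45 to 1.76), 3.21 times as dense as marked sequence (2.84 to 3.63) and 2.04 times as dense as all other autosomal sequence (1.86 to 2.24). GS peaks covered 2.55 kb per Mb of the stretches, 1.42 kb per Mb of shorter runs and 0.656 kb per Mb of marked sequence. The excess of GS peaks in unmarked sequence at large was known when the stretches were chosen, and the comparison of long with short unmarked runs is a division within it. Without the stretch that held 67 peaks, the density was 1.49 per Mb (1.37 to 1.62) and the ratio to shorter runs 1.45 (1.31 to 1.60).

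NT peaks were too few to place. Of the 58 on counted autosomal sequence, 13 lay in the stretches (22.4%, interval 12.5 to 35.3%), or 0.0334 per Mb (0.0178 to 0.0571). Shorter runs had 28, 0.0245 per Mb (0.0163 to 0.0354), and marked sequence 17, 0.0192 per Mb (0.0112 to 0.0308). The ratio of stretches to shorter runs was 1.36 (0.648 to 2.72), so no difference was detectable with this number of peaks. The NT density also depended on the restriction to autosomes: with the stretches of chromosome X counted as well it was 0.0980 per Mb, against 0.0334 on the autosomes alone. That the NT list shows no excess and the GS list does is no evidence that the lists differ, and their difference was not tested.

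Of the 360 stretches, 233 (64.7%, interval 59.5 to 69.7%) held at least 1 GS peak, and 11 held an NT peak. Long regions have more room for a peak, so the same was counted in windows of 500 kb tiled along the autosomes. Of all 4822 windows, 32.2% held a GS peak and 1.1% an NT peak. Of the 426 windows wholly inside a stretch, 198 held a GS peak (46.5%, interval 41.7 to 51.3%) and 5 an NT peak (1.17%, interval 0.382 to 2.72%). The GS share was therefore above that of all windows, and the NT share lay beside it. All windows include marked sequence, so the GS comparison takes in the known excess of GS peaks in unmarked sequence. Shorter unmarked runs are too short for a 500 kb window, so they could not be compared in this way.

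Peaks were unequally shared among the stretches. In 127 stretches there was no GS peak, in 95 there was 1, in 50 there were 2, in 60 there were 3 or 4, and in 28 there were 5 or more. Those 28 held 247 peaks, 38.5% of the peaks in the stretches. The stretches without a GS peak had a median length of 686 kb, against 972 kb for those with one, and summed to 111 Mb. In 6 stretches of 2 Mb or longer there was none: besides the 2 among the 10 longest, these were chr5:93762201-96366800, chr1:85322001-87616800, chr7:67300801-69356200 and chr8:15270201-17311800, listed here after their values were seen.

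Among unmarked runs of all lengths, GS peak density was lowest in those of 50 to under 100 kb and higher in each longer class. It was 0.615 per Mb (0.515 to 0.729) there, 0.904 (0.809 to 1.01) in runs of 100 to under 250 kb and 1.15 (1.01 to 1.3) in those of 250 to under 500 kb. Among the stretches it was 1.31 per Mb (1.09 to 1.56) under 750 kb, 1.65 (1.35 to 2.01) from 750 kb to under 1 Mb, 1.73 (1.52 to 1.96) from 1 to under 2 Mb and 1.85 (1.59 to 2.14) at 2 Mb or longer. The last value rested on 1 stretch. Without the one with 67 peaks, the other 33 stretches of 2 Mb or longer had 1.22 per Mb (1.01 to 1.47), below the class of 1 to under 2 Mb. Runs under 50 kb did not follow the order either, with a density (1.36 per Mb) above that of the stretches under 750 kb.

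**Figure D3:**
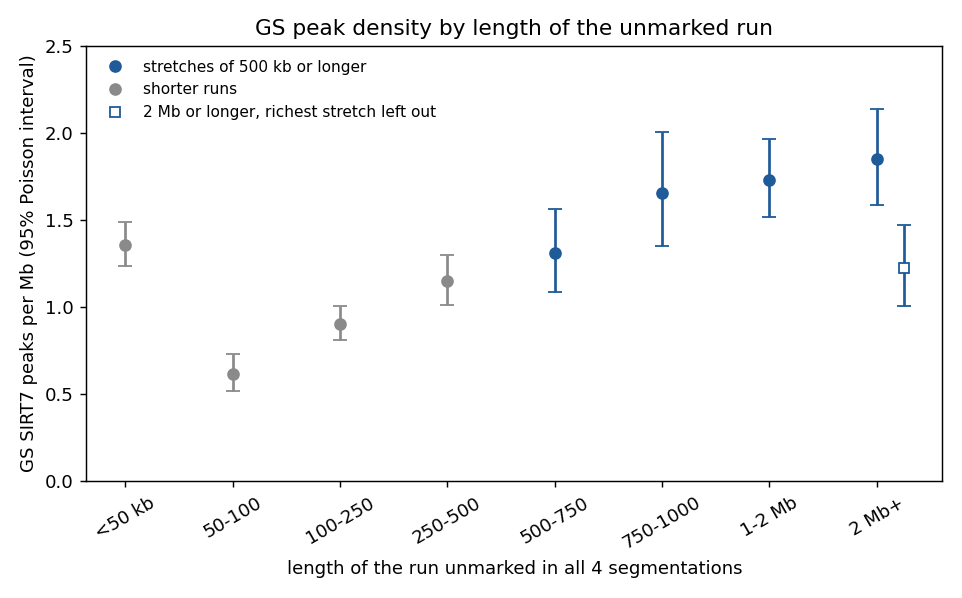
GS SIRT7 peaks per Mb (y axis, with 95% Poisson intervals) in runs unmarked in all 4 segmentations, by length class of the run (x axis; grey, under 500 kb; blue, the stretches). Density goes from 0.615 per Mb at 50 to under 100 kb to 1.85 per Mb at 2 Mb or longer; the open square shows the last class without the stretch of 67 peaks, at 1.22 per Mb.

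GS peaks were not confined to the edges of the stretches or to their interior. Within 25 kb of an end there were 31 peaks, 1.72 per Mb (1.17 to 2.44), then 1.17 per Mb (0.722 to 1.78) from 25 to 50 kb and 1.19 per Mb (0.864 to 1.61) from 50 to 100 kb. Farther in, there were 1.65 per Mb (1.41 to 1.91) from 100 to 250 kb, 1.71 (1.48 to 1.97) from 250 to 500 kb and 1.81 (1.55 to 2.09) beyond 500 kb. Without the stretch of 67 peaks the innermost value was 1.33 (1.11 to 1.59). At the same distances from their ends, shorter runs had 1.07 per Mb within 25 kb, 0.714 from 25 to 50 kb, 1.15 from 50 to 100 kb and 1.22 from 100 to 250 kb. Within 25 kb the interval was 1.17 to 2.44 in the stretches, on 31 peaks, against 0.996 to 1.16 in shorter runs. Intervals overlapped at 25 to 50 kb, 50 to 100 kb and 100 to 250 kb (1.41 to 1.91 against 1.01 to 1.46 in the last). As these intervals are too narrow, they do not settle a difference at any single distance.

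The surroundings of the stretches were less marked than autosomal sequence outside the stretches at large. By the rule the stretches hold no marked bin, so a higher marked share outside them is built in. Sequence within 100 kb outside a stretch was marked at 14.4% of bins in KO-GS, 14.6% in KO-NT, 19.2% in WT-GS and 17.1% in WT-NT. Sequence from 100 to 500 kb away was marked at 18.9, 18.6, 22.2 and 21.6%. For all autosomal sequence outside the stretches the shares were 33.8, 32.3, 37.8 and 37.3%. GS peaks there numbered 0.997 per Mb (0.757 to 1.29) within 100 kb and 0.992 per Mb (0.858 to 1.14) from 100 to 500 kb, both below the 1.65 per Mb inside the stretches, while all autosomal sequence outside had 0.805 per Mb.

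The density of GS peaks in the stretches exceeded that in shorter unmarked runs on 16 of 19 autosomes and that in marked sequence on 19 of 19. Over autosomes the means were 1.73 per Mb (SD 0.733) in the stretches, 1.02 (SD 0.236) in shorter runs and 0.510 (SD 0.199) in marked sequence. Chromosome 19 was highest, with 19 peaks in its 5.42 Mb of stretches, 3.51 per Mb, against 0.506 in its shorter runs. Chromosome 11 had 2.82 against 1.04 per Mb, and chromosome 7 2.48 against 0.597. Without the stretch of 67 peaks the other 27 on chromosome 7 had 50 peaks, 1.19 per Mb (0.886 to 1.57). The 3 autosomes that went the other way were chromosome 12 (0.596 against 1.07 per Mb), chromosome 14 (1.05 against 1.28) and chromosome 15 (0.905 against 1.09). On chromosome 8 the values were nearly equal, 1.01 and 0.990 per Mb.

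**Figure D4:**
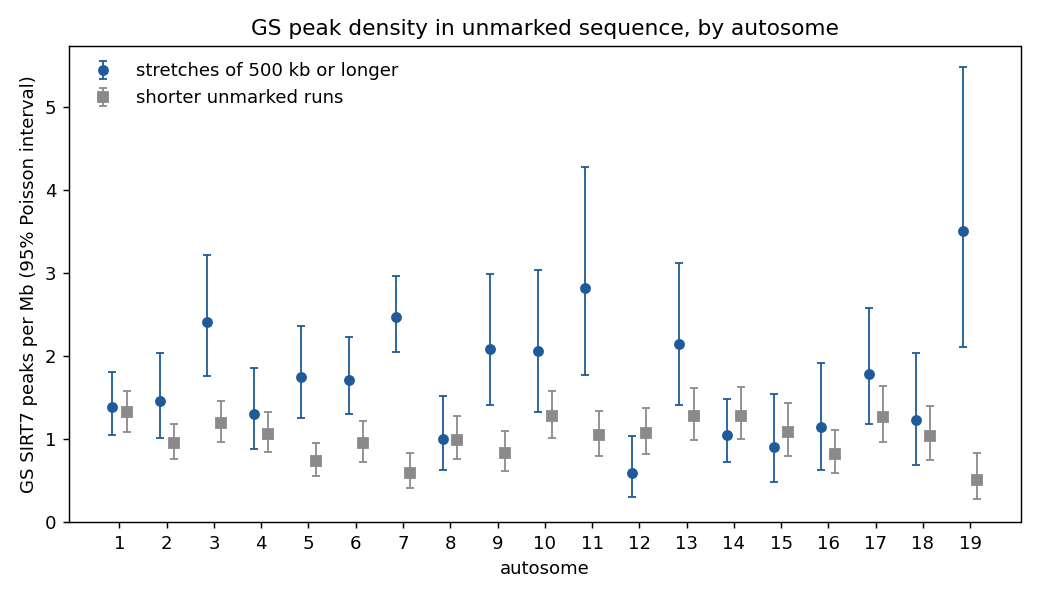
GS SIRT7 peaks per Mb (y axis, with 95% Poisson intervals) on each autosome (x axis) in the stretches (blue circles) and in shorter runs unmarked in all 4 segmentations (grey squares). The circle is above the square on 16 of 19 autosomes and below it on chromosomes 12, 14 and 15.

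Position along the chromosome moved with peak density too. In the stretches there were 2.16 GS peaks per Mb in section 1, 1.43 in section 2, 1.64 in section 3, 1.26 in section 4 and 1.39 in section 5. In shorter runs the values were 1.55, 1.06, 1.02, 0.827 and 0.725. The ratio of stretches to shorter runs was 1.39 (1.18 to 1.65), 1.35 (1.07 to 1.69), 1.61 (1.3 to 1.99), 1.52 (1.15 to 1.99) and 1.92 (1.43 to 2.56), in the same order. Section 1 holds the stretch of 67 peaks. Without it, the stretches there had 1.62 per Mb, 1.04 times the shorter runs (0.862 to 1.26), so the difference in section 1 rested on that stretch. Sections 2 to 5 do not hold it, so leaving it out could not change their ratios. No stretch was left out within those sections.

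**Figure D5:**
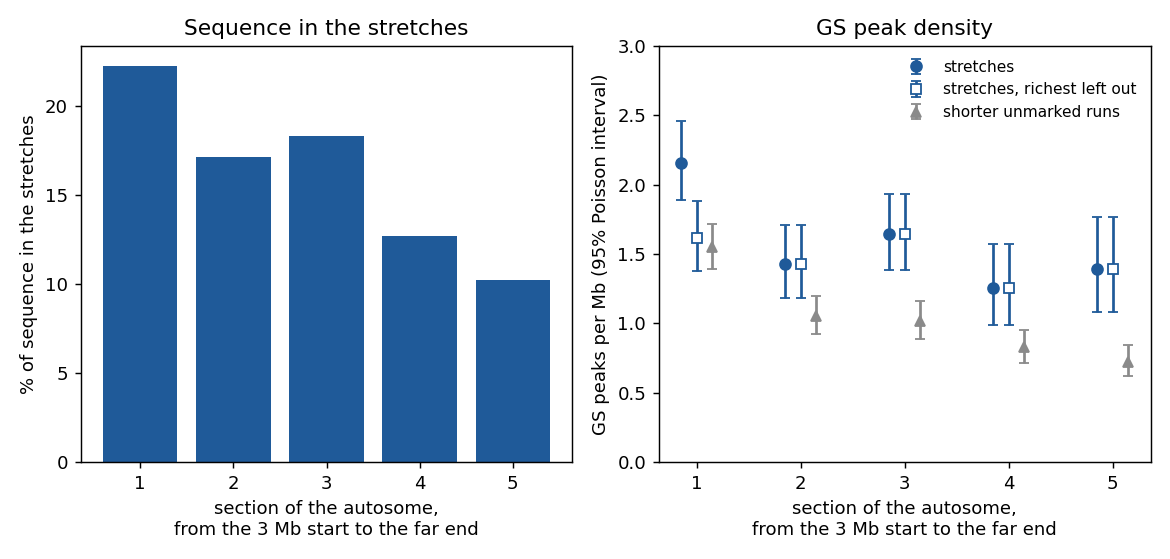
Autosomes were divided into 5 equal sections from 3 Mb (1) to the far end (5). The left panel shows the share of each section that lay in the stretches, from 22.2 to 10.2%; the right panel shows GS peaks per Mb with 95% Poisson intervals in the stretches, in the stretches without the one of 67 peaks (open squares) and in shorter unmarked runs (triangles), where the open square and the triangle are close in section 1 (1.62 and 1.55) and apart in section 5 (1.39 and 0.725).

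The stretch on chromosome 7 from 7257401 to 12595600 held 10.5% of all GS peaks in the stretches, 12.6 per Mb (9.73 to 15.9). Its 67 peaks ran from 7343072 to 12216084, 46 of them in the left 50% of the stretch, with a median spacing of 31.0 kb and a largest gap of 532 kb. Their median length was 2379 bp, compared with 1260 bp over all GS peaks in the stretches, and they covered 3.18% of the stretch. Scores, which the authors deposited with each peak and which end at 1000, ran from 540 to 992. None of the 58 NT peaks lay there, which allows up to 0.562 per Mb.

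The next richest stretches were far smaller clusters. Chromosome 5 from 10803001 to 11953200 held 14 GS peaks in 1150 kb, 12.2 per Mb (6.65 to 20.4), with a median peak length of 2198 bp and a median spacing of 56.2 kb. A further 3 stretches held 9 peaks each. In that on chromosome 6 from 129536801 to 131195800, all 9 lay in the right 50%, between 130527749 and 131036372, after 992 kb without a peak. In that on chromosome 1 from 7201001 to 9134600, 7 of 9 lay in the left 50%, and in that on chromosome 7 from 48851401 to 50522800 they were divided 4 and 5. By density, 3 short stretches with 4 peaks each followed the leading 2: chr17:54494601-54995200 (7.99 per Mb, 2.18 to 20.5), chr4:67133801-67679000 (7.34 per Mb, 2.00 to 18.8) and chr19:9277801-9871000 (6.74 per Mb, 1.84 to 17.3).

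Peaks in the stretches differed little from other listed peaks in length and score. GS peaks there had a median length of 1260 bp (quartiles 792 and 1962), against 1155 bp (789 and 1738) in shorter runs and 1127 bp (714 and 1659) in marked sequence. Median scores were 628, 630 and 628. Of the GS peaks with the top score of 1000, 6 lay in the stretches, 15 in shorter runs and 1 in marked sequence. These 6 were on chromosome 4 at 146696350 to 146702788 and 145118642 to 145123067, on chromosome 6 at 130527749 to 130530626 and 132413705 to 132413987, on chromosome 5 at 71027457 to 71030301 and on chromosome 9 at 19379764 to 19380089. The distance between neighbouring GS peaks of 1 stretch had a median of 140 kb (quartiles 44.2 and 309 kb, 408 pairs), and 51 pairs were under 10 kb apart. The stretch of 67 peaks is included, with 39 spacings under 50 kb. In shorter runs, whose length limits the distance, the median was 35.2 kb (146 pairs, 46 of them under 10 kb apart).

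The 13 NT peaks lay in 11 stretches, and 9 of the 13 overlapped a GS peak by 1 bp or more (69.2%, interval 38.6 to 90.9%), against 12 of 28 in shorter runs and 11 of 17 in marked sequence. Of the 11 stretches, 4 were on chromosome 4, 3 on chromosome 6, 2 on chromosome 9 and 1 each on chromosomes 3 and 10. The stretch on chromosome 6 from 129536801 held 2 NT peaks, at 130643180 to 130646253 (score 556, no GS overlap) and 130987114 to 130989176 (score 763, overlapping). A nearby stretch, from 131463201 to 133050400, had 5 GS peaks and the NT peak of highest score in any stretch, 1000, at 132413590 to 132413978, a site shared with a GS peak of score 1000. On chromosome 9 from 18281801 to 19420600, the NT peak at 19379796 to 19379997 (score 981) also overlapped a GS peak of score 1000.

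Near the far end of chromosome 4, 2 stretches held peaks that overlapped between the lists. The one from 144923601 to 145661000 held 3 GS and 2 NT peaks, and its NT peak at 145118639 to 145123056 (4418 bp, score 706) coincided with a GS peak of score 1000. The one from 146207601 to 146776400 held 2 GS peaks and the longest NT peak of any stretch, 7269 bp from 146694936 to 146702204 (score 897), again overlapping a GS peak of score 1000. How far these stretches reached differed between segmentations, and the second lay in a U1 run of 569 kb in KO-GS, 685 kb in WT-GS, 875 kb in KO-NT and 1124 kb in WT-NT.

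Other stretches with an NT peak had 1 each. That on chromosome 6 from 8997201 to 11863800 (2867 kb) had 7 GS peaks, 1 of them overlapping the NT peak at 10135886 to 10136500. Those on chromosome 10 from 128469201 to 129907000 and on chromosome 9 from 25460801 to 26282800 had 3 and 5 GS peaks, and their NT peaks, at 129314710 to 129315896 and 26026462 to 26027530, overlapped one. On chromosome 4 from 22443801 to 23793600 there were 2 GS peaks, and the NT peak at 23584014 to 23584966 overlapped neither. The stretch on chromosome 4 from 127669601 to 128201800 was the only one of the 11 with an NT peak (128181722 to 128182224, score 594) and no GS peak, a count that in its 532 kb allows up to 5.64 per Mb.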

How the data were processed

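The submitters' processing notes name MACS 1.4.2 and deepTools 2.4.2, besides Trimmomatic 0.36, FastQC 0.11.3, SAMtools 0.1.19 and Bowtie, and builds mm9 and hg19, with no role given to any. Chromosome ends in the segmentations are those of mm9. The authors deposited 4 segmentations, which give each 200 bp bin a state and no other value, and 2 SIRT7 peak lists with a whole-number score for each peak (from 537 in GS and 538 in NT, up to 1000). The sources used here do not say which tool made each file, what scores and states mean or how many reads each library had. Segmentations and peaks were joined by position with Python 3.11.15 and scipy 1.17.1. Code was tested on simulated states and peaks. Exact 95% intervals and limits of 3 counts were used, and no test over samples was possible. The stretches described by name were the 10 longest, the 5 richest in GS peaks by number and by density, 10 with an NT peak, and those at the length minimum. The members and these rules were chosen with earlier results of these data known. Genes were not placed on the stretches and no sequence is shown, because no genome or annotation of build mm9 was used here.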

Additional observations from a re-analysis of the deposited data

How the results depend on the processing

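With a length minimum of 250 kb there were 1003 stretches (610 Mb, 1.47 GS peaks per Mb, 41.4% with a GS peak), and with 1 Mb there were 135 (234 Mb, 83.0% with a GS peak). Counting chromosome X as well gave 1.94 GS and 0.0980 NT peaks per Mb and a ratio of GS density in stretches over shorter runs of 1.79, and counting from the first base gave 1.44 per Mb and a ratio of 1.39. With the upper 50% of peaks by score, GS density was 0.819 per Mb, since fewer peaks were counted, and 44.4% of stretches held one. Peaks were also chained wherever neighbours lay within 100 kb, and each chain, whatever its length, was counted once at its first peak. Density was then 1.21 per Mb and the ratio 1.42. Leaving out the stretch of 67 peaks, an alternative chosen after seeing the data, gave 1.49 per Mb, and leaving out chromosome 7, chosen likewise, gave a ratio of 1.45. The ratio of GS density was above 1 in all 16 alternatives, from 1.39 to 1.79, and its counting interval was above 1 in all 16. Reading short marked breaks as unmarked, or not requiring 1 of the segmentations, gave 362 to 381 stretches. No paired analysis was possible because each list and segmentation combines its replicates and no result comes from a test over samples. Unknown depth limits what a stretch or peak-poor stretch can show.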
